A study of Mus musculus with 2 samples.

Results

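The bone morphogenetic protein (BMP) pathway and the inhibitor of DNA binding (Id) factors were represented by 10 genes, chosen by symbol: the Id genes Id1, Id2, Id3 and Id4, the ligand genes Bmp2 and Bmp4, the receptor genes Bmpr1a and Bmpr2, and the signal transducer genes Smad1 and Smad6. They are 10 of the 24532 genes in the deposited table, and all 10 were found there by Entrez ID. The series holds RNA-seq of muscle stem cells, which express Pax7 and repair skeletal muscle, sorted from the limbs of male C57BL/6 mice: 1 library from double-knockout (dKO) cells and 1 from wild-type (WT) cells. The dKO mice lack estrogen receptor beta (Esr2–/–) and carry Pax7-CreER, whose Cre is driven by Pax7 and acts after tamoxifen, together with a gene it deletes, which is not reported here. One tamoxifen protocol is given for both samples (20 mg/mL in oil by mouth at 3 months of age, on 5 days in a row), and both titles carry the mark 6M, which the labels do not explain. Vcam1-positive cells without CD31, CD45 or Sca1 were sorted and used at passage 0, without culture. The labels state neither whether the WT mice carried a Cre allele nor how many mice each library pools.

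BMP ligands bind pairs of type I and type II receptor kinases, which phosphorylate Smad1, Smad5 and Smad9. These Smads enter the nucleus with Smad4 and switch on target genes, of which the Id genes and the inhibitory Smad6 and Smad7 are the best known. Id proteins have a helix-loop-helix domain but no DNA-binding part, so they capture E proteins and keep the myogenic factors MyoD and myogenin from forming active dimers. In skeletal muscle, BMP signalling is known for holding activated stem cells in proliferation and delaying their differentiation.

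The BMP target genes among the 10 differ in the letters of their start regions, and the windows of Id2, Id3, Id4 and Smad6 are shown for that reason. Windows of 250 bases before to 50 bases after a start base were taken from RefSeq on GRCm38.p6, the assembly that mm10 names. Of the 10 genes, 8 had one, and Id1 and Bmp2 did not. The whole Bmpr1a window lies inside the gene coordinates given below, and so does the start base of the Smad6 window. They are written 5′ to 3′ on the gene's strand in lower case, with capitals for the Smad-binding letters GGCGCC, GTCTAGAC and CAGAC, searched on both strands.
Id2 (chr12:25096043-25096342, minus strand): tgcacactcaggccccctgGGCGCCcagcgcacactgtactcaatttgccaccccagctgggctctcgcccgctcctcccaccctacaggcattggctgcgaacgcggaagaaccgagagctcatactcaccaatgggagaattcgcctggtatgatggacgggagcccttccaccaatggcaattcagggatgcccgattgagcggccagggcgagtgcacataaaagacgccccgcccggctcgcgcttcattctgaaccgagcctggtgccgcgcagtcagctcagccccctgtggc
Id3 (chr4:136143572-136143871, plus strand): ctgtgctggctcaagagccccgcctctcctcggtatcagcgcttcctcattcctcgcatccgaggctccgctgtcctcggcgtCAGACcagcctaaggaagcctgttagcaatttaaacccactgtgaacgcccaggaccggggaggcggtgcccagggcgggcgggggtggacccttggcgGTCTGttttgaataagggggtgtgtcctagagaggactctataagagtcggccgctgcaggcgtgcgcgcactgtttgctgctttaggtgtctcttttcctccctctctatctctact
Id4 (chr13:48260866-48261165, plus strand): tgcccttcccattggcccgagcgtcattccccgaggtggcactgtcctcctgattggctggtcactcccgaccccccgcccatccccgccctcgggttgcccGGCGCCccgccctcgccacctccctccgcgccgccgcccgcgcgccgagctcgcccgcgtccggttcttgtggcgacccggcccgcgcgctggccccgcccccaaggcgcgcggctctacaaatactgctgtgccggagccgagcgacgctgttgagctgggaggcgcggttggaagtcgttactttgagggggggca
Smad6 (chr9:64022010-64022309, minus strand): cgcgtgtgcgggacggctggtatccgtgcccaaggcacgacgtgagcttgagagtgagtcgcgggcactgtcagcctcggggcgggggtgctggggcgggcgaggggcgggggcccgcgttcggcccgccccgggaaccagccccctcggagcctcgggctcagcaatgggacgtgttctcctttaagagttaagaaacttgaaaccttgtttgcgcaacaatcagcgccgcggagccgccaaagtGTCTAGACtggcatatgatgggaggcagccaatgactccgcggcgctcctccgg

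The GC-rich letters GGCGCC stood once each in the windows of Id2, Id4, Bmpr1a and Bmpr2, and in 11.9% of all 32851 promoter windows. The palindrome GTCTAGAC stood in the Smad6 window, across its start base and inside the gene coordinates, and in 0.213% of all windows. The short letters CAGAC stood at 2 places in the Id3 window and in 49.6% of all windows, and the Smad1 and Bmp4 windows held none of these 3 motifs. The E-box letters CANNTG, the kind of site that E proteins and myogenic factors bind, stood in the windows of Id2, Bmp4 and Smad6 and in 72.3% of all windows. None of the motifs overlapped another in these windows. A match is a description of letters in this window only.

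The dKO library held 43699831 and the WT library 36636680 reads assigned to transcripts. After scaling by TMM (trimmed mean of M values), levels are counts per mega-read of library (CPM), and the log2 ratio compares dKO CPM + 1 with WT CPM + 1. Each group is 1 library, so no test between the groups was possible, no difference has a replicate check, and every statement compares these 2 libraries. The intervals below are exact 95% intervals for counting error only: Poisson for counts, and conditional binomial (Clopper-Pearson) for dKO to WT ratios of CPM. Measured genes were the 14885 that reached 10 counts in the higher library, and those whose log2 ratio was 1 or more, or −1 or less, count as 2-fold apart. Abundance and length went with the ratio across the table: the median log2 ratio was 0.32 in the most abundant eighth of genes with at least 100 counts and −0.28 in the least abundant, and 0.21 in the shortest eighth and −0.17 in the longest. Esr2 (Entrez 13983) had 45 counts in dKO and 71 in WT; which part was deleted is not stated, so this checks nothing about the label.

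None of the 10 genes was 2-fold apart, while 6.22% of all measured genes were (1.92% higher and 4.30% lower in dKO). By TMM scaling, Id1, Id3, Bmp2, Bmpr2 and Smad1 had log2 ratios above 0, and Id2, Id4, Bmp4, Bmpr1a and Smad6 below 0. Of the 14885 measured genes, 7084 were above 0 and 7801 below. In that setting Id1 stood farthest out, at 1.89-fold of WT, and Smad6 was the lowest, at 0.657 of WT. With a trend of the log2 ratio on abundance and length removed, Bmp4 was both farthest out and lowest, at −0.69, and with library totals Smad6 (−0.78) and Id4 (−0.73) lay farther out than Id1 (0.66). The median log2 ratio of the 10 genes was 0.05, against −0.02 over all measured genes, and their values ran from −0.55 to 0.91. That median turned to −0.35 with the trend removed, where Id3 also lay below 0. With library totals it was −0.21, Id3 was at −0.07, and the median of all measured genes moved by −0.22.

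**Figure D1:**
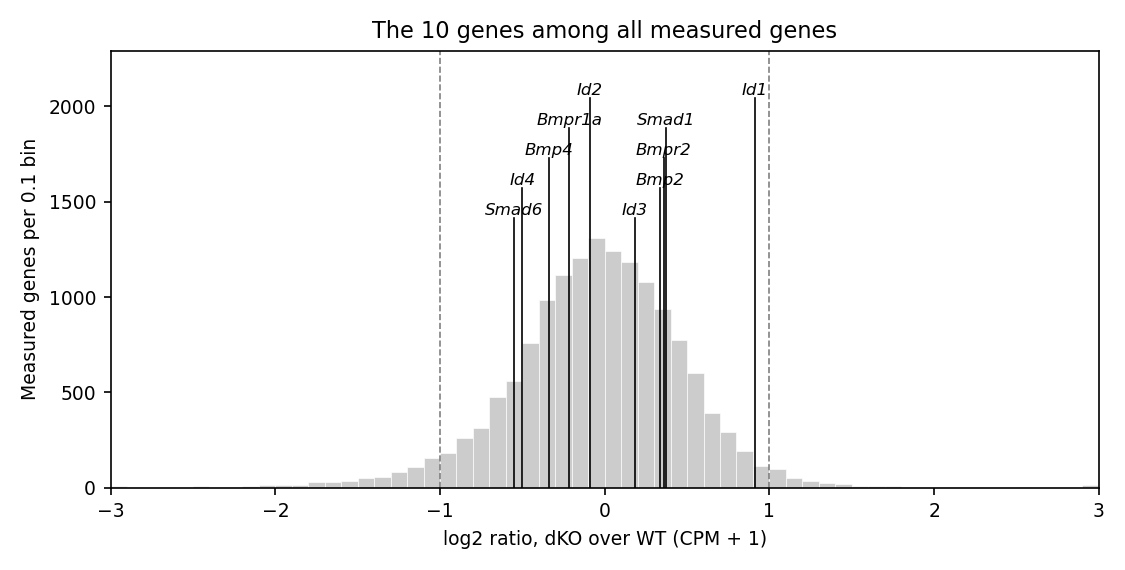
Histogram of the log2 ratio (dKO CPM + 1 over WT CPM + 1, x axis) of the 14885 measured genes in bins of 0.1 (y axis, genes per bin; the outermost bins hold all genes beyond them), with a labelled line at each of the 10 genes. All 10 lie between the dashed lines at −1 and 1, from Smad6 at −0.55 to Id1 at 0.91.

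Levels of different genes were compared per transcript length, as CPM per kilobase of transcript (RPKM). Id3 had by far the highest length-scaled level of the 10, with 1177 RPKM in dKO and 1036 RPKM in WT, above 99.4% of measured genes in dKO and 99.6% in WT. Id1 came second in both libraries with 251 RPKM in dKO and 133 RPKM in WT, followed by Bmp4 with 70.2 RPKM in dKO and 88.8 RPKM in WT. Id2 (56.4 RPKM in dKO, 60.1 in WT) and Smad1 (38.6 RPKM in dKO, 29.7 in WT) came next. Bmpr2 and Bmpr1a were close to each other, and their order differed between the libraries: Bmpr2 had 21.7 RPKM in dKO and 16.9 in WT, and Bmpr1a had 20.6 in dKO and 23.9 in WT. At the low end stood Bmp2 (17.6 RPKM in dKO, 13.9 in WT), Id4 (4.34 in dKO, 6.38 in WT) and Smad6 (2.82 in dKO, 4.29 in WT). No order between neighbours could be set against a spread between animals, since each level comes from 1 library.

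**Figure D2:**
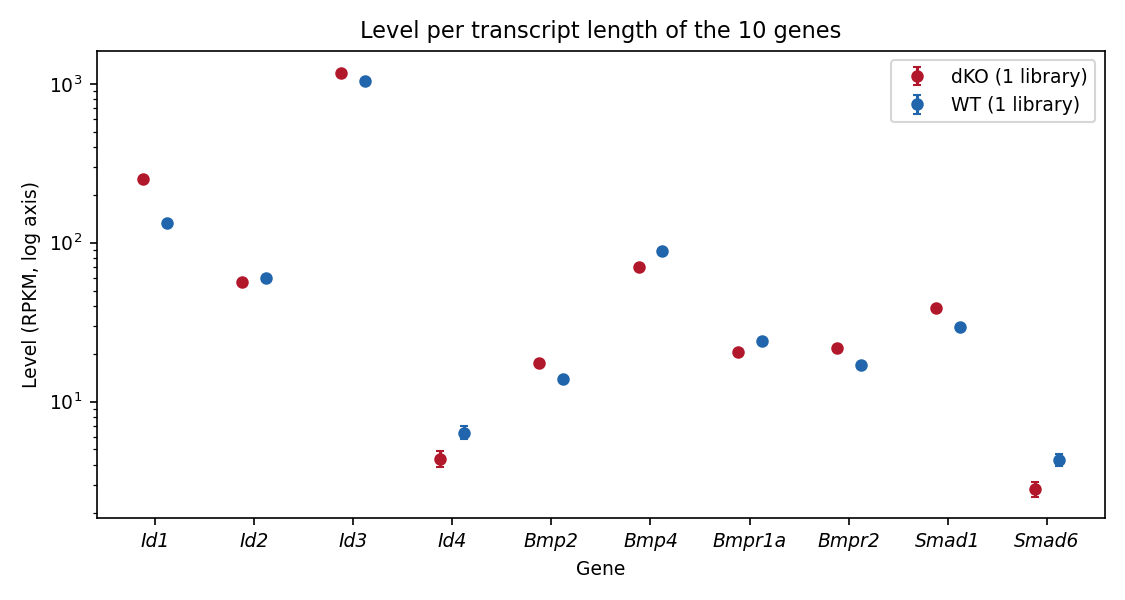
Length-scaled level (RPKM, log axis) of each of the 10 genes (x axis) in the dKO library (left point, red) and the WT library (right point, blue); bars are 95% Poisson intervals of the counts and are mostly smaller than the points. Id3 is highest in both libraries (1177 RPKM in dKO, 1036 in WT) and Smad6 lowest (2.82 in dKO, 4.29 in WT).

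The Id genes, direct targets of BMP signalling, differed from one another. Id1 (Entrez 15901, chromosome 2, 152736251 to 152737410) had 9371 counts in dKO (9182 to 9563) and 4959 counts in WT (4822 to 5099), or 234 CPM in dKO and 124 CPM in WT. The counting intervals do not overlap, and the dKO to WT ratio was 1.89 (1.82 to 1.96), a log2 ratio that 2.54% of measured genes reached or passed. Id1 is a short and abundant transcript, the kind that was higher in dKO across the table, and with that trend removed its log2 ratio was 0.43 in place of 0.91, a ratio of 1.34. By a 1.5-fold rule 22.1% of measured genes were apart, and Id1 alone of the 10 was called higher, against 8.98% of measured genes. None of the 10 was called lower by that rule, against 13.1%, although Smad6 passed it with a pseudocount of 0.1 (log2 ratio of −0.60). None was 4-fold apart, against 0.544% (0.168% higher, 0.376% lower).

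Id3 (Entrez 15903, chromosome 4, 136143822 to 136145392), the dominant Id gene here, had 44873 counts in dKO (44459 to 45290) and 39496 in WT (39107 to 39888), or 1121 CPM in dKO and 987 CPM in WT. Its ratio was 1.14 (1.12 to 1.15), a small excess in dKO with a log2 ratio of 0.18, which turned to −0.07 under library totals and to −0.41 with the trend removed. Id2 (Entrez 15902, chromosome 12, 25093799 to 25096092), whose window carries GGCGCC, had 2871 counts in dKO and 3057 in WT, or 71.7 CPM in dKO and 76.4 CPM in WT. The Id2 ratio of 0.939 (0.892 to 0.988) is near 1, at a log2 ratio of −0.09, and it was −0.39 with the trend removed and −0.34 under library totals.

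Id4 (Entrez 15904, chromosome 13, 48261116 to 48266028) was the rarest Id gene, with 288 counts in dKO (256 to 323) and 424 in WT (385 to 466), or 7.20 CPM in dKO and 10.6 CPM in WT. Its ratio was 0.679 (0.583 to 0.790), with a log2 ratio of −0.50 that lay between −0.73 and −0.35 under 6 alternative settings. The Id genes together held 1488 RPKM in dKO and 1235 RPKM in WT. Id3 made up 79.1% of that sum in dKO and 83.9% in WT, and Id1 16.8% in dKO and 10.7% in WT.

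Ratios of counts between a pair of genes within a library do not depend on how the libraries are scaled. There were 0.209 Id1 reads per Id3 read in dKO and 0.126 in WT, so the dKO ratio was 1.66 times that in WT (1.60 to 1.73, a log-normal interval for counting error). Of Id1 to Id2, the ratio was 3.26 in dKO and 1.62 in WT, or 2.01 times as high in dKO (1.89 to 2.14). The make-up of the Id family thus held more Id1 relative to Id2 and Id3 in the dKO library, whichever scaling is used.

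The E proteins that Id factors capture were at similar summed levels in both libraries. Tcf4 had 240 CPM in dKO and 241 CPM in WT, Tcf12 had 109 CPM in dKO and 121 CPM in WT, and Tcf3 had 72.1 CPM in dKO and 77.3 CPM in WT. All 3 had log2 ratios between −0.15 and −0.01, with 0 of 3 2-fold apart, beside 6.22% of all measured genes. Their median of −0.10 depended on the setting: it was −0.70 by the most abundant transcript of each gene, −0.35 with library totals and −0.23 with the trend removed. Myod1, the myogenic factor whose dimers Id proteins block, was chosen with its value known and had 16886 counts in dKO and 5396 in WT (ratio 3.13, 3.03 to 3.23). Myog, the gene of myogenin, had 709 counts in dKO and 749 in WT (ratio 0.946, 0.853 to 1.05). Pax7, the factor that defines these stem cells and a known activator of Id3, had 12620 counts in dKO and 22335 in WT.

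Among ligands, Bmp2 and Bmp4 stood on opposite sides of 0. Bmp2 (Entrez 12156, chromosome 2, 133552159 to 133562896) had 2511 counts in dKO (2414 to 2611) and 1982 in WT (1896 to 2071), or 62.7 CPM in dKO and 49.5 CPM in WT. Its ratio was 1.27 (1.19 to 1.34), with a log2 ratio of 0.33, and 0.09 under library totals. Bmp4 (Entrez 12159, chromosome 14, 46383525 to 46390669) had 5768 counts in dKO (5620 to 5919) and 7312 in WT (7145 to 7482), or 144 CPM in dKO and 183 CPM in WT. The Bmp4 ratio was 0.789 (0.762 to 0.816), with a log2 ratio of −0.34, and −0.69 with the trend removed.

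Bmp4 was the one gene of the 10 with more than 1 transcript in the table. Its transcript of 2059 bases had 5459 counts in dKO and 7312 in WT, and that of 1934 bases had 309 counts in dKO and 0 in WT. The shorter transcript thus took 5.36% of the Bmp4 reads in dKO and none in WT. No source states how reads were divided between transcripts, and for Bmp3 the reads stood wholly on the 6302-base transcript in dKO (52 counts) and wholly on the 6229-base one in WT (169 counts). Within each library there were 0.435 Bmp2 reads per Bmp4 read in dKO and 0.271 in WT, a 1.61-fold difference (1.5 to 1.72).

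The other BMP and GDF ligand genes were mostly rare. Of 12, 7 were measured, and 0 were higher and 2 lower by 2-fold, beside 1.92% and 4.30% of all measured genes. All 7 were below 0, as were 7801 of the 14885 measured genes. Their median log2 ratio was −0.46 (−0.50 with Bmp15, at 0 counts in dKO, set at a floor of 3 counts). The median was −0.24 with the trend removed and −0.26 with a pseudocount of 5. Bmp5 had 242 counts in dKO and 576 in WT (ratio 0.420, 0.360 to 0.489), and Bmp3, known for opposing other BMPs in bone, had 52 in dKO and 169 in WT (0.308, 0.221 to 0.422). Neither was 2-fold apart with a pseudocount of 5 (log2 ratios of −0.81 for Bmp5 and −0.55 for Bmp3) or with the trend removed (−0.90 and −0.76). Bmp6, named here after its value was seen, was the most abundant of these ligands, with 172 CPM in dKO and 209 CPM in WT (ratio 0.826, 0.800 to 0.853), at a length-scaled level of 57.5 RPKM in dKO and 69.6 RPKM in WT. Bmp8a, Bmp8b, Bmp10 and Gdf5 had 0 counts in both libraries, below the floor of 3 counts (0.0750 CPM in either library).

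Bmpr2, the type II receptor gene (Entrez 12168, chromosome 1, 59764279 to 59878081), had 9641 counts in dKO (9450 to 9835) and 7509 in WT (7340 to 7681), or 241 CPM in dKO and 188 CPM in WT. Its ratio was 1.28 (1.245 to 1.32), with a log2 ratio of 0.36. Bmpr1a, a type I receptor gene (Entrez 12166, chromosome 14, 34411061 to 34503336), had 4518 counts in dKO (4387 to 4652) and 5248 in WT (5107 to 5392), or 113 CPM in dKO and 131 CPM in WT. The Bmpr1a ratio was 0.861 (0.827 to 0.896), with a log2 ratio of −0.21. The receptor pair therefore differed in opposite directions, and reads of Bmpr2 per read of Bmpr1a were 2.13 in dKO and 1.43 in WT (1.49 times as high in dKO, 1.42 to 1.57).

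Of 10 other receptors and co-receptors, all measured, 0 were 2-fold apart, beside 6.22% of all measured genes. Below 0 were 8 of the 10, as were 7801 of the 14885 measured genes, and the median log2 ratio was −0.25. The co-receptor genes Rgma and Rgmb had the highest mean length-scaled levels: Rgma had 31.7 RPKM in dKO and 38.3 in WT, and Rgmb 33.1 in dKO and 33.2 in WT. Acvrl1 and Eng, receptor genes best known from endothelial cells and named after their values were seen, were the lowest of the list. Acvrl1 had 29.2 CPM in dKO and 49.4 CPM in WT (ratio 0.591, 0.550 to 0.636), and Eng had 74.9 CPM in dKO and 122 CPM in WT (0.616, 0.589 to 0.645). The most abundant transcript of Acvrl1 alone gave a log2 ratio of −2.27, against −0.74 by the sum. Other Acvrl1 transcripts with reads went both ways. That of 3640 bases had 670 counts in dKO and 397 in WT, that of 3571 bases 284 and 260, and that of 3658 bases 0 and 149.

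Smad1 (Entrez 17125, chromosome 8, 79338395 to 79399428), which carries the BMP signal to the nucleus, had 4705 counts in dKO (4572 to 4841) and 3618 in WT (3501 to 3738), or 118 CPM in dKO and 90.4 CPM in WT. Its ratio was 1.30 (1.24 to 1.36), with a log2 ratio of 0.37 that was 0.17 with the trend removed and 0.12 under library totals. Smad6 (Entrez 17130, chromosome 9, 63953076 to 64022085), a target of the pathway that inhibits it, had 335 counts in dKO (300.1 to 373) and 510 in WT (467 to 556), or 8.37 CPM in dKO and 12.7 CPM in WT. The Smad6 ratio was 0.657 (0.570 to 0.755), with a log2 ratio of −0.55 that 14.3% of measured genes reached or passed downward. That log2 ratio was −0.38 with the trend removed and −0.78 under library totals. Reads of Smad1 per read of Smad6 were 14.04 in dKO and 7.09 in WT, which is 1.98 times as high in dKO (1.71 to 2.29). The trend on abundance and length, which brought both genes closer to equal, was not removed from this comparison.

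The other 9 Smads and Smad regulators, all measured, were close to equal in the libraries. Of these, 0 were 2-fold apart, beside 6.22% of all measured genes. Their log2 ratios ran from −0.24 to 0.28, with a median of 0.00. The co-repressor genes Ski and Skil had the highest length-scaled levels: Ski had 462 CPM in dKO and 461 CPM in WT, and Skil had 499 CPM in dKO and 558 CPM in WT. Smad7, the other inhibitory Smad and named after its value was seen, had 2029 counts in dKO and 1662 in WT (ratio 1.22, 1.14 to 1.30), on the other side of 0 from Smad6. Smad4 and Smad5, also named afterwards, had ratios of 1.02 (0.977 to 1.07) and 1.03 (0.997 to 1.07).

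**Figure D3:**
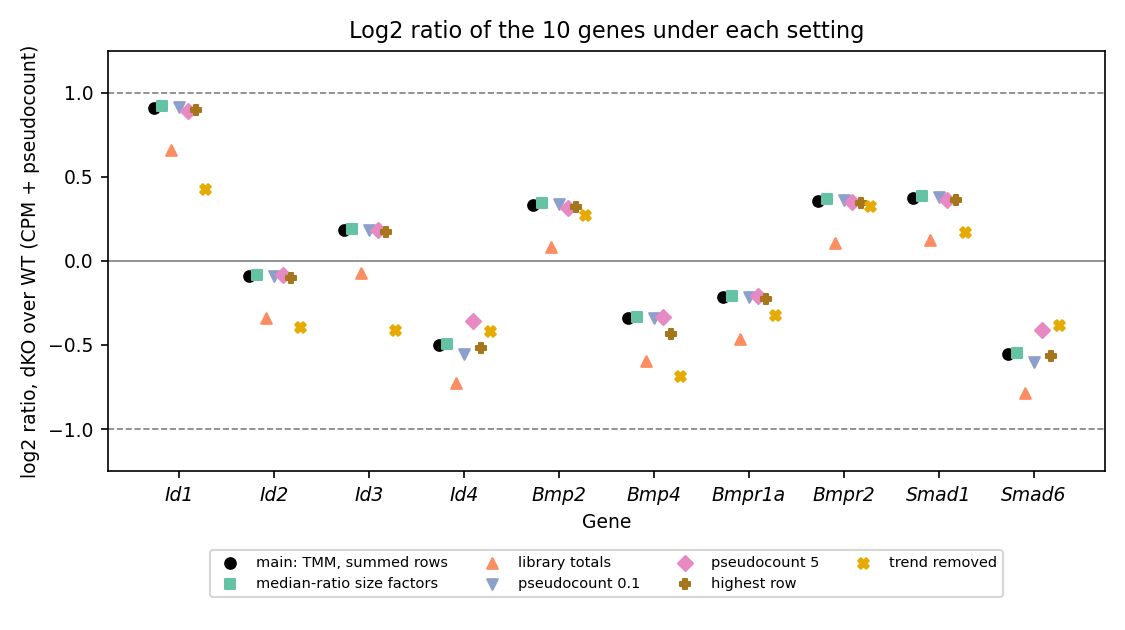
Log2 ratio (dKO over WT, y axis) of each of the 10 genes (x axis) by the main setting and 6 alternatives (markers in the legend); dashed lines mark 2-fold. For 9 genes the sign is the same under all 6, and Id3 lies below 0 after removal of the trend on abundance and length (−0.41) and with library totals (−0.07).

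Further target genes of BMP signalling stood on both sides of 0. Of 8 listed, 4 of which also stand in the lists of Smads or inhibitors, 7 were measured. Of these 7, 0 were 2-fold apart, beside 6.22% of all measured genes. Above 0 were 3 and below 0 were 4, and the median log2 ratio was −0.20. That median is the value of Nog, with 8 counts in dKO and 15 in WT, and it turned to 0.05 with the trend removed and to 0.01 with a minimum of 100 counts. Hey1, a transcriptional repressor shared with the Notch pathway, had 77.9 CPM in dKO and 51.8 CPM in WT (ratio 1.502, 1.42 to 1.59). Atoh8 had 71.0 CPM in dKO and 82.9 CPM in WT (0.857, 0.815 to 0.901), and Msx1, a homeobox factor that holds back muscle differentiation and is named after its value was seen, had 6.57 CPM in dKO and 10.5 CPM in WT (0.626, 0.535 to 0.732).

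Genes of secreted and membrane BMP inhibitors held 2 of the 4 genes in the pathway lists that were 2-fold apart. Of 15, 14 were measured, with a median log2 ratio of 0.05. On the scale of CPM + 1, 0 were higher and 2 lower by 2-fold, beside 1.92% and 4.30% of all measured genes. That pseudocount holds Grem1 and Cer1, at 0 counts in WT, under the 2-fold rule. Chrd, the gene of the ligand trap chordin, had 1014 counts in dKO and 2457 in WT (ratio 0.413, 0.383 to 0.444). It was lower by 2-fold under each of the 6 alternatives, with log2 ratios from −2.05 (the 3275-base transcript alone) to −1.13. By transcript, Chrd had 406 counts in dKO and 1781 in WT at 3275 bases, and 608 in dKO and 676 in WT at 3341 bases. Its relative Chrdl1 had 463 counts in dKO and 1143 in WT (0.405, 0.363 to 0.452), and by its most abundant transcript alone its log2 ratio was −0.76 in place of −1.23.

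Chrdl2, a further chordin relative abundant in these cells, and Nbl1 had the highest length-scaled levels of the inhibitors and were named after their values were seen. Chrdl2 had 34941 counts in dKO and 42378 in WT (ratio 0.824, 0.813 to 0.836), with 575 RPKM in dKO and 697 RPKM in WT. Nbl1 had 18934 counts in dKO and 17282 in WT (1.10, 1.07 to 1.12), with 269 RPKM in dKO and 245 RPKM in WT. Grem1 had 28 counts in dKO and 0 in WT, 9.33-fold higher if WT is set at a floor of 3 counts. Cer1 had 19 counts in dKO and 0 in WT, 6.33-fold higher by the same floor. These values leave out counting error, and the 95% upper limit for 0 counts in WT is 3.69. Grem1, Cer1 and Nog, the gene of noggin, were named after their values were seen.

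Over the 50 BMP pathway genes outside the 10, 43 were measured. Of these, 0 were higher (with Grem1 and Cer1 as above) and 4 lower by 2-fold, beside 1.92% and 4.30% of all measured genes. Above 0 were 16 and below 0 were 27, beside 7084 above and 7801 below of all measured genes. The median log2 ratio was −0.20, against −0.02 for all measured genes. In the related TGF-beta and activin arm, 0 of 8 genes were 2-fold apart, beside 6.22% of all measured genes. Below 0 were 6 of the 8, and the median was −0.26. Tgfbr3 had 1106 CPM in dKO and 1393 CPM in WT (ratio 0.794, 0.784 to 0.804), and the ligand gene Tgfb3 had 134 CPM in dKO and 166 CPM in WT (0.804, 0.775 to 0.833).

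Markers of endothelial, immune and stromal cells mostly had log2 ratios below 0, as did 7801 of the 14885 measured genes. By 2-fold, 4.30% of all measured genes were lower in dKO. The endothelial list had log2 ratios under 0 for all 17 genes, past 2-fold for 15 (Tek and Cldn5 were not), with none at 0 counts and a summed level of 345 CPM in dKO and 885 CPM in WT. The immune list had 18 of 20 genes measured, each under 0 and 16 past 2-fold (Cd68 and Cd79a were not), with a summed level of 68.6 CPM in dKO and 229.6 CPM in WT. Ms4a1, Cx3cr1, S100a8 and S100a9 were at 0 in dKO, and Cd3e and Ms4a1 at 0 in WT. Of 10 fibro-adipogenic progenitor markers, Pdgfra, Ly6a, Col1a1, Dpp4, Pi16 and Mfap5 were lower by 2-fold (4123 CPM summed in dKO, 5323 in WT). Dcn, Lum, Gsn and Col3a1 were not, with Col3a1 at a log2 ratio of 0.02. Of 9 mural cell markers, Myh11, Cnn1 and Kcnj8 were lower by 2-fold (1166 CPM summed in dKO, 1653 in WT). Rgs5, Pdgfrb, Cspg4, Acta2, Tagln and Abcc9 were not. Of 5 tendon markers, Scx and Thbs4 were lower by 2-fold (2052 CPM summed in dKO, 4323 in WT), and Tnmd, Mkx and Fmod were not. The myofibre markers, led by Acta1 and Tnnt3, had 0 of 7 genes 2-fold apart, beside 6.22% of all measured genes (525 CPM summed in dKO, 704 in WT).

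The muscle stem cell markers, which check the label, were all present in both libraries. Of 12, 0 were 2-fold apart, beside 6.22% of all measured genes. Below 0 were 7, and the median log2 ratio was −0.05 (−0.32 with the trend removed). Their sum was 11211 CPM in dKO and 8671 CPM in WT, led by Sdc4 with 4872 CPM in dKO and 2980 CPM in WT and by Des with 1724 CPM in dKO and 1184 CPM in WT. The log2 ratios in this list ran from −0.82 for Pax7 and −0.67 for Cxcr4 to 0.83 for Vcam1, which was used in the sort. By TMM scaling Id2, Id4, Bmp4, Bmpr1a and Smad6 of the 10 genes were lower in dKO, as were most endothelial, immune and stromal markers. Id1, Id3, Bmp2, Bmpr2 and Smad1 were higher. Of the other pathway genes, Acvrl1, Eng, Bmp5 and Chrd, picked after their values were seen, were lower and Hey1 was higher. The part of those cells in these values was not tested. In sorted bulk samples, fewer cells of a type and less RNA per cell cannot be told apart.

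**Figure D4:**
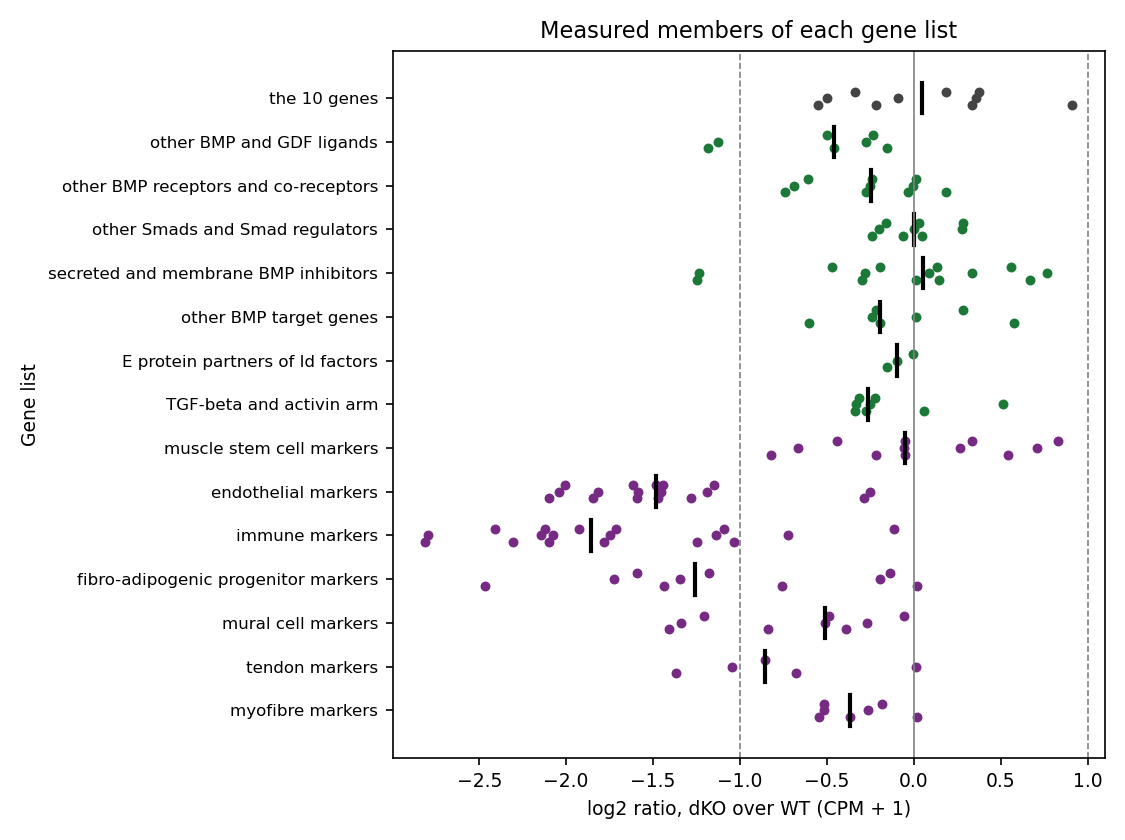
Log2 ratio (dKO CPM + 1 over WT CPM + 1, x axis) of each measured gene (points) in the 10 genes, the other pathway lists (green) and the cell type marker lists described above (purple), with a bar at each list's median and dashed lines at 2-fold. The 10 genes centre on 0.05 (−0.35 with the trend on abundance and length removed), while endothelial markers centre on −1.48 and immune markers on −1.86.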

How the data were processed

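Read counts per transcript were deposited by the authors for 1 dKO and 1 WT library, with Entrez gene IDs and transcript lengths, per the file headers. The build was mm10, and TopHat2 2.0.9, bedtools and edgeR are named, with no roles, per the submitters' processing notes. Counting rule, read type and strand are not stated, so overlapping or antisense genes cannot be told apart. The 36780 transcripts were summed to 24532 gene IDs (6494 with several transcripts), of which 24462 matched a RefSeq symbol on GRCm38.p6. TMM factors (edgeR 4.0.16, R 4.3.3) were 0.916 for dKO and 1.09 for WT. RPKM values, CPM, log2 ratios and intervals (scipy 1.17.1) were computed from the counts; the RPKM of a gene is the sum over its transcripts. No test was possible with 1 library per group. Nothing says whether mice were pooled. Named were the 10 genes, list members 2-fold apart, and the 2 with the highest length-scaled level where a list had fewer than 2. Other genes are said to be named after their values were seen. The members and lists were chosen with earlier results of these data known. Results for 1 marker list are not reported here. Steps were tested on simulated data. Alternatives were median-ratio scaling (DESeq2 1.42.0), library totals, pseudocounts of 0.1 and 5, the most abundant transcript, removal of a cubic trend on abundance and length, no count minimum or one of 100, and 1.5-fold and 4-fold rules.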

Additional observations from a re-analysis of the deposited data

How the results depend on the processing

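No paired analysis was possible because each group is 1 library, and leaving out a library leaves no comparison. None of the 10 genes was 2-fold apart under scaling, pseudocount, transcript or trend alternatives, and 9 of 10 kept their sign, with Id3 the exception (library totals, trend removed). By the 1.5-fold rule 1 of the 10 was higher. Over all measured genes, 286 were higher and 640 lower (69.1% of those apart were lower). The counts were 130 higher and 1040 lower (88.9% lower) with library totals, 698 and 1653 with a pseudocount of 0.1, and 154 and 187 (54.8% lower) with one of 5. They were 474 higher and 936 lower by the most abundant transcript, 309 higher and 424 lower (57.8% lower) with the trend removed, 1336 and 1955 by a 1.5-fold rule, and 25 and 56 by a 4-fold rule. For the 50 other pathway genes, 2 in place of 0 were higher with a pseudocount of 0.1. By the 1.5-fold rule 2 were also higher, Grem1 and Sostdc1, beside 8.98% of all measured genes. Sostdc1, named after its value was seen, had 119 counts in dKO and 60 in WT (ratio 1.98, 1.44 to 2.75). In place of 4, 2 were lower with a pseudocount of 5 and with the trend removed. By the 1.5-fold rule 8 were lower and by the 4-fold rule 0, beside 13.1% and 0.376% of all measured genes. The median of the pathway genes was −0.35 with library totals, against −0.24 for all measured genes. It was −0.17 with the trend removed, against 0.00, and −0.08 with a pseudocount of 5, against −0.01. With no count minimum it was −0.05, against 0.00. The cause of these shifts was not tested, apart from the fold rules, which set the counts by construction. Counting error is wide for rare genes such as Nog, Bmp15, Cer1 and Grem1.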
